A study of Mus musculus with 8 samples.

Results

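A set of 10 genes that encode plasma membrane transporters of ascorbate, cystine, taurine and neutral amino acids was followed in fiber cells (FC) of the mouse lens after exposure to cigarette smoke (CS). The rule picks rows by gene symbol and uses no measured value, and each gene has 1 row among the 35275 rows of the expression table. They are the ascorbate transporters Slc23a1 and Slc23a2, the cystine exchanger Slc7a11, the heavy chain Slc3a2, the leucine exchanger Slc7a5, the neutral amino acid exchangers Slc1a4 and Slc1a5, the sodium-coupled neutral amino acid transporter Slc38a2, the taurine transporter Slc6a6 and the glycine transporter Slc6a9. RNA was sequenced from 8 libraries of C57BL/6 mice (C57BL/6J in the methods), 4 of CS-exposed mice and 4 of untreated control (Ct) mice of matched age that stayed in the animal facility. CS-exposed mice spent 5 hours a day on 5 days a week in a whole-body smoke chamber, starting around birth and lasting 3.5 months. Each library was a pool of FC from the right eyes of 4 mice, and p values measure the spread between such pools. By the methods of the study, 2 pools of each group were male and 2 female, but the sample labels do not say which, so sex was not used. FC were parted from the epithelium by hand under a microscope.

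The lens has no blood supply, and its fiber cells, which lose their organelles as they mature, depend on solutes taken up from the surrounding humor. Cystine brought in by Slc7a11 is reduced to cysteine, the limiting building block of glutathione, and ascorbate and glutathione together keep the long-lived lens proteins reduced. Slc7a11 and Slc7a5 are light chains that reach the cell surface bound to the same heavy chain, Slc3a2, while taurine is an organic osmolyte that the lens holds at high concentration.

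Levels are FPKM, fragments per length of gene and per depth of library. Comparisons between genes therefore rest on the length used for each gene. The depth of the libraries was estimated at 18100000 to 23300000 fragments, and whole reads were recovered from the steps of the FPKM values for 99.8% of the 9794 genes whose mean reached 1 FPKM in one group or both. All 10 marker genes of lens fibers reached 1 FPKM, and their mean log2 level differed by 0.0070 between groups (two-sided exact permutation test, p = 0.686). Markers of other tissues were also read. The summed level of 10 rod photoreceptor markers, of which 9 reached 1 FPKM and none was at 0 everywhere, was 10.6 to 27.7 FPKM in untreated Ct and 31.5 to 88.2 FPKM in CS-exposed libraries. That of 6 pigment epithelium markers, of which 4 reached 1 FPKM and Best1 was at 0 in every library, was 0.922 to 1.85 FPKM against 2.70 to 25.6 FPKM. The mean log2 level of each of these lists was higher in all 4 CS-exposed libraries than in any untreated Ct library (exact p = 0.0286, the smallest that 4 against 4 libraries allow). None of the other lists (lens epithelium, melanin cells, inner retina and glia, blood, vessel and immune cells, cornea) had an exact p under 0.114.

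The transporter genes spanned a wide range of levels in FC, and the order of their mean levels was the same in both groups. Slc38a2, Slc6a6, Slc7a5 and Slc3a2 lay above 10 FPKM in every library, Slc1a4 between 2.63 and 4.63 FPKM, and Slc7a11 and Slc23a2 between 0.748 and 2.83 FPKM. Slc1a5, Slc23a1 and Slc6a9 stayed under 1 FPKM in every library. Within a library, each gene was compared with the next lower one on the log2 FPKM scale by an exact sign-flip permutation test over the 8 libraries (two-sided, Benjamini-Hochberg adjusted over 9 pairs). Of the 9 neighbouring pairs, 6 differed in the same direction in all 8 libraries (adjusted p = 0.0117 each). Their unadjusted sign-flip p of 0.00781 is the smallest that 8 libraries allow, and the order tested was taken from these same libraries. Slc38a2 exceeded Slc6a6 by 1.53-fold, Slc6a6 exceeded Slc7a5 by 1.31-fold, Slc3a2 exceeded Slc1a4 by 3.30-fold and Slc1a4 exceeded Slc7a11 by 2.89-fold. Slc23a2 exceeded Slc1a5 by 2.10-fold, and Slc1a5 exceeded Slc23a1 by 2.34-fold. Slc7a5 and Slc3a2 (adjusted p = 0.246), Slc7a11 and Slc23a2 (adjusted p = 0.231), and Slc23a1 and Slc6a9 (adjusted p = 0.398) did not differ beyond their spread by the same exact test. These folds rest on the gene lengths the authors divided by, which are the same in every library and so lie outside the test. The lengths implied by the FPKM were 0.523 to 1.0 times the exon lengths annotated in GENCODE for these genes. On the annotated lengths the order of the means held, but Slc38a2 exceeded Slc6a6 by 1.10-fold, Slc6a6 and Slc7a5 lay 1.01-fold apart (exact sign-flip test, adjusted p = 0.800), and Slc7a5 exceeded Slc3a2 by 1.34-fold (adjusted p = 0.0422). Slc1a4 then exceeded Slc7a11 by 4.36-fold, and Slc1a5 exceeded Slc23a1 by 1.68-fold in 6 of 8 libraries (adjusted p = 0.0469). Without untreated Ct replicate 3, in which Slc3a2 was high, Slc7a5 exceeded Slc3a2 by 0.28 on the log2 scale (exact sign-flip test, adjusted p = 0.0402).

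**Figure D1:**
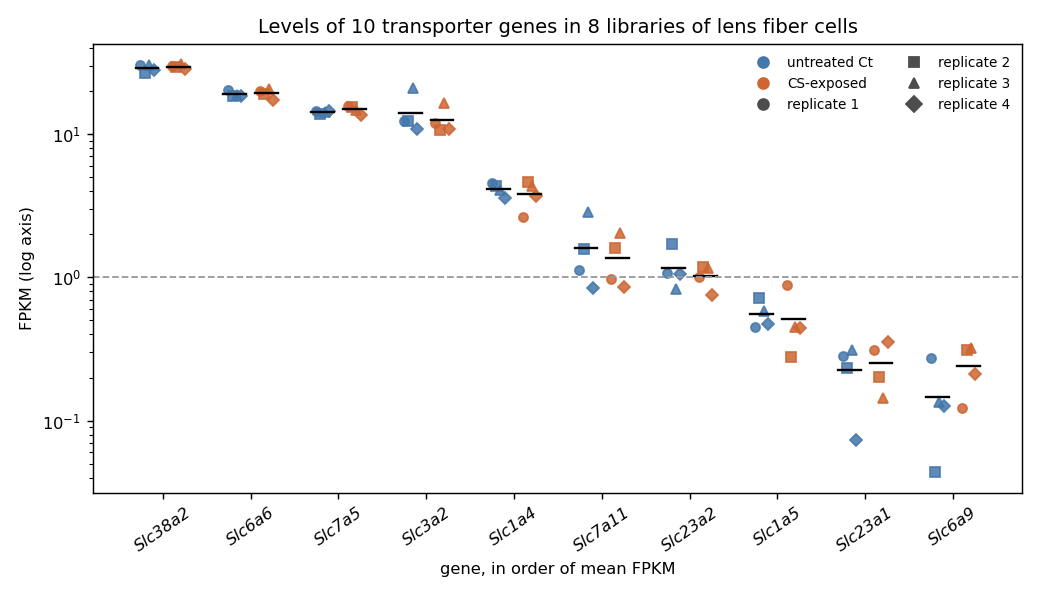
Level of each of the 10 transporter genes (FPKM, log axis) in each of the 8 libraries, with untreated Ct and CS-exposed libraries set apart by colour and replicates by marker, and with short lines for the group means and a dashed line at 1 FPKM. The groups overlap for every gene, and untreated Ct replicate 3 stands above the rest for Slc3a2 (21.0 FPKM) and Slc7a11 (2.83 FPKM).

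None of the transporter genes passed the test for a difference between CS-exposed and untreated Ct mice. Across the 9794 genes tested with limma on log2(FPKM + 0.1), 0.0102% had a Benjamini-Hochberg adjusted p under 0.05, 4.83% an unadjusted p under 0.05 (2.75% higher and 2.08% lower in CS-exposed mice), and 3.08% had groups that did not overlap. Of the 7 transporter genes that reached 1 FPKM, 0 had an adjusted and 0 an unadjusted p under 0.05, and limma-voom on the recovered reads also gave 0 at either threshold. Among the 7, 3 were nominally higher and 4 nominally lower in CS-exposed mice, with unadjusted p values of 0.412 to 0.856 and adjusted p values of 0.985 to 0.995. The median log2 fold change was -0.14 over the 7 genes and 0.0043 over all genes tested. In 0 of the 10 genes were the libraries of one group all above those of the other.

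The precision of these comparisons differed widely among the genes, and it sets what can be said of each. For Slc38a2, Slc6a6 and Slc7a5, the 95% confidence intervals of the fold ran from 0.936 to 1.13, from 0.907 to 1.12 and from 0.940 to 1.15. For Slc3a2 and Slc1a4 they ran from 0.671 to 1.21 and from 0.708 to 1.16, and for Slc23a2 from 0.612 to 1.32. The interval of Slc7a11, 0.523 to 1.54, was the widest of the 7.

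**Figure D2:**
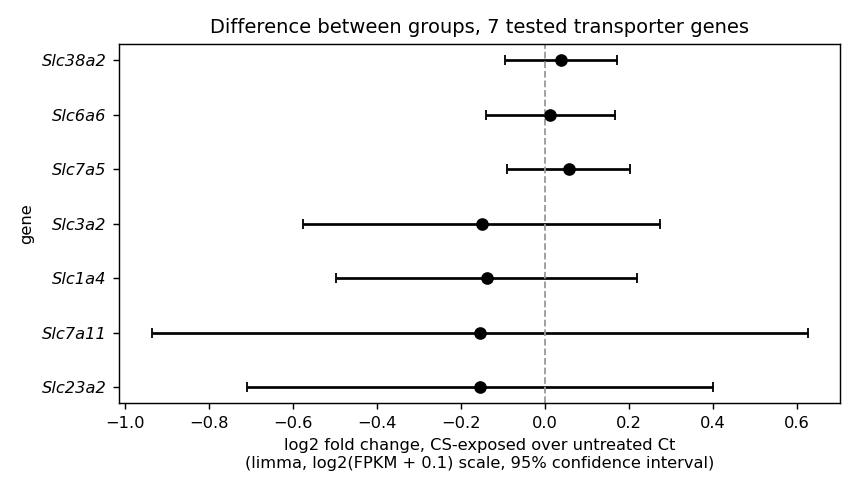
Log2 fold change of CS-exposed over untreated Ct libraries for the 7 tested transporter genes on the log2(FPKM + 0.1) scale, with points for the limma estimates and bars for their 95% confidence intervals. Every interval crosses 0, and that of Slc7a11 (-0.94 to 0.63) is several times as wide as that of Slc38a2 (-0.10 to 0.17).

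Slc38a2, which carries glutamine, alanine and other small neutral amino acids into cells with sodium and is known to be induced by amino acid shortage and by hypertonic stress, was the highest of the 10. The gene lies on the minus strand at chr15:96687392-96699730 (GRCm38). Its levels were 30.4, 26.8, 30.4 and 27.8 FPKM in untreated Ct replicates 1 to 4 and 29.9, 29.5, 30.6 and 28.2 FPKM in CS-exposed replicates 1 to 4. The libraries of each group lay inside nearly the same narrow range. The means were 28.8 ± 1.83 FPKM (SD, n = 4) in untreated Ct and 29.5 ± 0.987 FPKM (SD, n = 4) in CS-exposed mice. The log2 fold change was 0.04 with a standard error of 0.06 (limma adjusted p = 0.985). The spread of Slc38a2 within groups was lower than that of most genes, at percentile 8.59 of all genes tested, with 2323 to 3265 reads a library.

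Slc6a6, which takes up taurine and is a known target of the osmotic stress factor Nfat5, was next in order. It lies on the plus strand at chr6:91684053-91759066 and shares 1.38% of its exon bases with the antisense gene Gm44981. Levels were 20.3, 18.5, 18.8 and 18.3 FPKM in untreated Ct and 19.8, 18.9, 20.6 and 17.4 FPKM in CS-exposed replicates 1 to 4. The highest and the lowest library were both from CS-exposed mice. The means were 19.0 ± 0.900 FPKM (SD, n = 4) and 19.2 ± 1.40 FPKM (SD, n = 4), and the log2 fold change was 0.01 with a standard error of 0.07 (limma adjusted p = 0.995). The ratio of Slc6a6 to Slc38a2 was held within 0.616 and 0.690 over all 8 libraries, with a mean log2 ratio of -0.60 ± 0.06 (SD, n = 4) in untreated Ct and -0.63 ± 0.06 (SD, n = 4) in CS-exposed mice (exact permutation test, p = 0.629).

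Of a list of Nfat5 and 4 genes it is known to govern, 4 were tested (Nfat5, Akr1b3, Slc5a3 and Hspa4l). By limma 0 had an unadjusted p under 0.05, beside 4.83% of all genes tested, from which nothing can be read for so short a list. The highest of them was Akr1b3, the aldose reductase that makes the osmolyte sorbitol, at 6.46 ± 0.883 FPKM (SD, n = 4) in untreated Ct and 5.91 ± 1.13 FPKM (SD, n = 4) in CS-exposed mice.

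Slc6a9, which takes up glycine, the last amino acid added to glutathione, was close to the floor of the measurement. It lies on the plus strand at chr4:117834506-117875198, had 3 to 25 reads a library, and had levels of 0.275, 0.0437, 0.136 and 0.127 FPKM in untreated Ct and 0.123, 0.311, 0.322 and 0.213 FPKM in CS-exposed replicates 1 to 4. The groups overlapped, with 3 CS-exposed libraries above 3 of the untreated Ct libraries. The mean log2(FPKM + 0.1) level was 0.52 higher in CS-exposed mice, which an exact permutation test did not separate from the spread (two-sided p = 0.200). Of its exon bases, 27.8% are shared with the antisense gene Ccdc24, 9.94% with the antisense gene Gm17114 and 0.895% with the antisense gene B4galt2. Since no strand setting is stated for the counting, reads from the shared bases cannot be assigned to 1 gene.

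Slc7a5, which exchanges leucine and other large neutral amino acids, showed little spread. It lies on the minus strand at chr8:121881150-121907694, and its levels were 14.6, 13.8, 14.2 and 14.6 FPKM in untreated Ct and 15.6, 15.5, 14.8 and 13.6 FPKM in CS-exposed replicates 1 to 4. In 3 of the 4 CS-exposed libraries Slc7a5 lay above every untreated Ct library, and in CS-exposed replicate 4 it lay below every one. The means were 14.3 ± 0.354 FPKM (SD, n = 4) and 14.9 ± 0.907 FPKM (SD, n = 4), and the log2 fold change was 0.06 with a standard error of 0.07 (limma adjusted p = 0.985).

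Slc3a2, the heavy chain that Slc7a5 and Slc7a11 both need to reach the membrane, was at a similar mean level but spread much more. It lies on the minus strand at chr19:8706882-8723369. Levels were 12.3, 12.3, 21.0 and 10.9 FPKM in untreated Ct and 11.9, 10.7, 16.6 and 10.8 FPKM in CS-exposed replicates 1 to 4. Replicate 3 was the highest of each group, and the other 6 libraries lay between 10.7 and 12.3 FPKM. The means were 14.1 ± 4.63 FPKM (SD, n = 4) and 12.5 ± 2.77 FPKM (SD, n = 4), and the log2 fold change was -0.15 with a standard error of 0.19 (limma adjusted p = 0.985). The coefficient of variation within groups was 28.7%, where the reads alone would give 3.69%. Without untreated Ct replicate 3 the log2 fold change was 0.06, and without replicate 3 of both groups it was -0.09.

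Slc7a11, the light chain that brings in cystine in exchange for glutamate, was low and had one of the widest spreads of all genes tested. It lies on the minus strand at chr3:49892526-50443614. Levels were 1.13, 1.59, 2.83 and 0.845 FPKM in untreated Ct and 0.971, 1.61, 2.04 and 0.857 FPKM in CS-exposed replicates 1 to 4. In each group replicate 3 was the highest, replicate 2 the next and replicate 4 the lowest, with a ratio of 3.36 between the highest and the lowest library. The means were 1.60 ± 0.879 FPKM (SD, n = 4) and 1.37 ± 0.555 FPKM (SD, n = 4), and the log2 fold change was -0.16 with a standard error of 0.36 (limma adjusted p = 0.989). With 141 to 608 reads a library, counting alone would give a coefficient of variation of 6.49%, and the coefficient within groups was 49.6%. The within-group SD of 0.63 on the log2 scale stood at percentile 97.1 of all genes tested. Without untreated Ct replicate 3, the log2 fold change was 0.15.

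The bases just before the RefSeq start of Slc7a11, Slc3a2 and Slc38a2 are printed here because these genes are known targets of Atf4, the transcription factor of the amino acid response, or of Nrf2, the factor of the response to oxidants, and include the pair that forms the cystine exchanger and the highest gene of the set. Each window holds 250 bases on the coding strand, 5′ to 3′, ending at the base before the start (RefSeq, GRCm38.p6), from chr3:50443614-50443863, chr19:8713898-8714147 and chr15:96699729-96699978, all on the minus strand. The Slc3a2 window lies inside the gene as annotated above, before a RefSeq start that is downstream of the first annotated base. Capitals mark matches, on either strand, to the core of the C/EBP-ATF response element, TGATGNAA, or of the antioxidant response element, TGACNNNGC.
Slc7a11: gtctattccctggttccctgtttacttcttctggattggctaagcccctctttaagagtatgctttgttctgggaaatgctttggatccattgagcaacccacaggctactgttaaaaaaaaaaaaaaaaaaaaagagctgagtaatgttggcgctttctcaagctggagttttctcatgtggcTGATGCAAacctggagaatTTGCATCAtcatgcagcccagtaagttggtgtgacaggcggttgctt
Slc3a2: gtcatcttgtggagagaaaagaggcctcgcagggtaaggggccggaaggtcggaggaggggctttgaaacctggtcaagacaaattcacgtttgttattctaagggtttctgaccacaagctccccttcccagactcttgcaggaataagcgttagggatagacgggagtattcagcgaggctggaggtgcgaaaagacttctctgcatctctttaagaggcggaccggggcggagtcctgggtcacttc
Slc38a2: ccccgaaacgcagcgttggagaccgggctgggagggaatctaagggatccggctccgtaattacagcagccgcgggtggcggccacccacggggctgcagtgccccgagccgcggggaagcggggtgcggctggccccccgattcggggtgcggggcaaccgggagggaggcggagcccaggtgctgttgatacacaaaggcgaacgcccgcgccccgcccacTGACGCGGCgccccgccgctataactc
The Slc7a11 window held 2 matches to TGATGNAA, one on each strand, whose first bases lie 66 and 47 bases before the start. The Slc38a2 window held 1 match to TGACNNNGC, 27 bases before the start, and the Slc3a2 window held none of either. Among 32851 RefSeq windows of this length, 3.45% held TGATGNAA and 10.2% held TGACNNNGC. A match is a description of the letters and not a binding site, and no match of one motif overlapped a match of the other in the printed windows. Windows were found for 6 of the 10 genes, and Slc7a5, Slc1a5, Slc6a6 and Slc23a1 had none used here. Of the 3 not printed, Slc6a9 held TGACNNNGC in 2 of its windows, while Slc23a2 and Slc1a4 held neither motif.

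Of 20 genes of the Atf4 response other than the transporters, 12 were tested and 0 had an unadjusted limma p under 0.05, a count close to the 4.83% of all genes tested. Their median log2 fold change was 0.02. Atf4 itself was at 48.9 ± 4.41 FPKM (SD, n = 4) in untreated Ct and 54.0 ± 3.77 FPKM (SD, n = 4) in CS-exposed mice. Its log2 fold change was 0.15 (limma adjusted p = 0.956, unadjusted p = 0.0702). Nupr1, a small stress-induced nuclear protein, was the highest of the list at 149 ± 21.8 FPKM (SD, n = 4) and 145 ± 7.83 FPKM (SD, n = 4).

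Since light chains pair with the heavy chain, their ratios were taken within each library, which removes any scaling of the library. The ratio of Slc7a5 to Slc3a2 was 0.676 in untreated Ct replicate 3 and 0.894 in CS-exposed replicate 3, and 1.13 to 1.45 in the other 6 libraries. Its mean log2 value was 0.07 ± 0.43 (SD, n = 4) in untreated Ct and 0.28 ± 0.30 (SD, n = 4) in CS-exposed mice (exact permutation test, p = 0.514). Replicate 3 of each group was therefore the library in which Slc7a5 was lowest beside its heavy chain. On annotated exon lengths the ratio was 0.804 in untreated Ct replicate 3 and 1.06 in CS-exposed replicate 3. The ratio of Slc7a11 to Slc3a2 ran from 0.0775 to 0.150, with mean log2 values of -3.25 ± 0.39 (SD, n = 4) and -3.26 ± 0.45 (SD, n = 4) (exact p = 0.971). The ratio of Slc7a5 to Slc7a11 ran from 5.01 to 17.2, the smallest value being that of untreated Ct replicate 3, with mean log2 values of 3.31 ± 0.77 (SD, n = 4) and 3.53 ± 0.56 (SD, n = 4) (exact p = 0.600). After adjustment over the 5 ratios examined, all exact p values were 0.971.

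**Figure D3:**
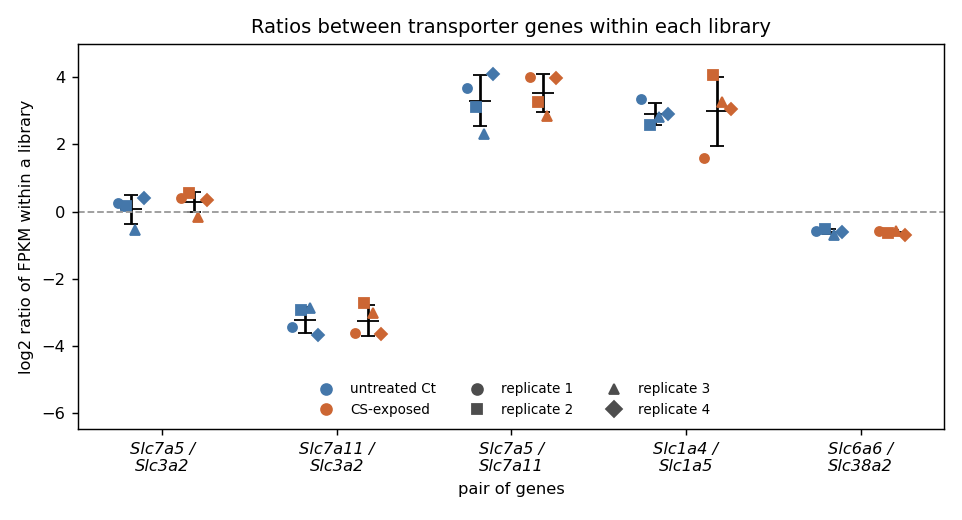
Log2 ratio of FPKM within a library for 5 pairs of transporter genes, with points for the 4 untreated Ct and 4 CS-exposed libraries and bars for the group mean and SD. The groups overlap for every pair, and the log2 ratio of Slc7a5 to Slc3a2 on the authors' gene lengths is below 0 only in replicate 3 of each group.

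Summed over the 6 light chains that are known to bind Slc3a2 (Slc7a5, Slc7a6, Slc7a7, Slc7a8, Slc7a10 and Slc7a11), the level was 25.1, 28.7, 37.1 and 27.0 FPKM in untreated Ct and 26.9, 30.4, 29.9 and 24.2 FPKM in CS-exposed replicates 1 to 4. On the authors' gene lengths, the light chains exceeded the heavy chain 1.77-fold to 2.85-fold, with the lowest ratios in replicate 3 of each group. Slc7a5 made up 38.3% to 58.1% of the light chain level and Slc7a8, another exchanger of neutral amino acids, 27.6% to 47.2%. Slc7a11 made up 3.13% to 7.65%. In untreated Ct replicate 3 the share of Slc7a5 was the lowest and those of Slc7a8 and Slc7a11 were the highest of the 8 libraries.

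Slc1a4 and Slc1a5 exchange alanine, serine, cysteine and, for Slc1a5, glutamine. Slc1a4 lies on the minus strand at chr11:20302180-20332713, and its levels were 4.59, 4.35, 4.09 and 3.56 FPKM in untreated Ct and 2.63, 4.63, 4.36 and 3.67 FPKM in CS-exposed replicates 1 to 4. CS-exposed replicate 1 was the lowest library and CS-exposed replicate 2 the highest. The means were 4.15 ± 0.439 FPKM (SD, n = 4) and 3.82 ± 0.891 FPKM (SD, n = 4), and the log2 fold change was -0.14 with a standard error of 0.16 (limma adjusted p = 0.985). It became 0.02 without CS-exposed replicate 1.

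Slc1a5 lies on the plus strand at chr7:16781340-16798274 and had 18 to 52 reads a library. Its levels were 0.448, 0.722, 0.582 and 0.473 FPKM in untreated Ct and 0.878, 0.278, 0.451 and 0.445 FPKM in CS-exposed replicates 1 to 4, so that CS-exposed mice gave both the highest and the lowest library (exact permutation test, p = 0.543). CS-exposed replicate 1 thus held the least Slc1a4 and the most Slc1a5, and CS-exposed replicate 2 the most Slc1a4 and the least Slc1a5. The mean log2 ratio of Slc1a4 to Slc1a5 was 2.92 ± 0.32 (SD, n = 4) in untreated Ct and 2.99 ± 1.03 (SD, n = 4) in CS-exposed mice (exact p = 0.886). Of the 5 other members of the Slc1 family, which carry glutamate or aspartate, 0 reached 1 FPKM.

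Of the ascorbate transporters, Slc23a2, the form found in most tissues, was the higher. It lies on the minus strand at chr2:132052496-132145108, with levels of 1.07, 1.72, 0.831 and 1.05 FPKM in untreated Ct and 0.998, 1.18, 1.16 and 0.748 FPKM in CS-exposed replicates 1 to 4. Untreated Ct replicate 2 stood above the other 7 libraries, which lay between 0.748 and 1.18 FPKM. The means were 1.17 ± 0.383 FPKM (SD, n = 4) and 1.02 ± 0.198 FPKM (SD, n = 4), and the log2 fold change was -0.15 with a standard error of 0.25 (limma adjusted p = 0.985). Without untreated Ct replicate 2 it was 0.03.

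Slc23a1, the ascorbate transporter of kidney, gut and other epithelia, had 4 to 23 reads a library. Its levels were 0.283, 0.234, 0.313 and 0.0731 FPKM in untreated Ct and 0.313, 0.200, 0.145 and 0.351 FPKM in CS-exposed replicates 1 to 4, with 2 CS-exposed libraries above and untreated Ct replicate 4 below all those of the other group (exact permutation test, p = 0.686). Of 4 further genes of ascorbate or dehydroascorbate transport, only Slc2a1, the glucose transporter that also admits dehydroascorbate, was tested. Its level of 35.4 ± 7.76 FPKM (SD, n = 4) in untreated Ct and 32.0 ± 3.85 FPKM (SD, n = 4) in CS-exposed mice was far above that of either ascorbate transporter. Its log2 fold change was -0.13 (limma adjusted p = 0.981).

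Among the wider families, 79 genes in 8 lists were read beside the 10 transporters, of which 78 have a row and 27 were tested. With limma, 0 had an adjusted p under 0.05 (smallest 0.956), 0 were higher and 1 was lower at an unadjusted p under 0.05, against the 2.08% of all genes tested that were lower. That gene was Slc7a4, a relative of the cationic amino acid transporters, at 3.67 ± 0.894 FPKM (SD, n = 4) in untreated Ct and 2.68 ± 0.607 FPKM (SD, n = 4) in CS-exposed mice (log2 fold change -0.44, standard error 0.20, unadjusted p = 0.0482). The arginine and lysine transporter Slc7a2 was the highest of the Slc7 and Slc3 families outside the set, at 28.7 ± 3.19 FPKM (SD, n = 4) and 28.3 ± 2.64 FPKM (SD, n = 4), and 4 of the 14 genes of this list were tested. In the Slc38 list 3 of 10 were tested and Slc38a10 was the highest at 13.2 ± 1.27 FPKM (SD, n = 4) and 13.5 ± 1.14 FPKM (SD, n = 4). In the Slc6 list 1 of 14 was tested, Slc6a17, at 4.51 ± 0.593 FPKM (SD, n = 4) and 4.58 ± 0.568 FPKM (SD, n = 4). Of 8 transporters of other families, 2 were tested, and the higher of them was the proton-coupled transporter Slc36a4 at 2.31 ± 0.366 FPKM (SD, n = 4) and 2.30 ± 0.383 FPKM (SD, n = 4).

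Because FC were parted from the epithelium by hand, the level of 7 lens epithelium markers was set beside each transporter. All 7 markers reached 1 FPKM, and their summed level was 66.3 to 124 FPKM in untreated Ct and 54.7 to 84.9 FPKM in CS-exposed libraries. Their mean log2 level was 2.51, 2.90, 3.43 and 2.49 in untreated Ct and 2.49, 2.85, 2.97 and 2.37 in CS-exposed replicates 1 to 4 (difference -0.16, exact permutation test, p = 0.486). Replicate 3 was thus the highest of each group, as it was for Slc3a2 and Slc7a11. Replicates 1 and 4 of both groups lay between 2.37 and 2.51, and replicates 2 and 3 of both groups between 2.85 and 3.43, with a gap of 0.34 between these sets of 4 libraries in a range of 1.06. Sets of 4 libraries were taken as too few for a correlation of their own.

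Slc7a11 followed this epithelium level closely over the 8 libraries. Pearson's r was 0.976 (exact permutation p = 0.000223, adjusted over 7 genes 0.00156) and Spearman's rho 0.905 (exact p = 0.00456, adjusted 0.0319). The relation held when the 2 libraries at the greatest distance from the median level were left out (r = 0.960) and for deviations from the group means (r = 0.981). By the slope of the line, Slc7a11 was 1.62 higher on the log2 scale for each unit of the epithelium level. Leaving out each marker in turn left r between 0.951 and 0.978. The markers of the cornea moved in a like way, with a summed level of 37.8 to 66.5 FPKM in replicates 2 and 3 of both groups and 20.6 to 29.6 FPKM in replicates 1 and 4. Of the 3 cornea markers 2 reached 1 FPKM and none was at 0 everywhere. With their mean log2 level, Slc7a11 gave r = 0.760 (exact permutation p = 0.0295, adjusted over 7 genes 0.103) and rho = 0.857 (exact p = 0.0107, adjusted 0.0750). The cornea level was itself related to the epithelium level (r = 0.745, exact permutation p = 0.0306, and rho = 0.857, exact p = 0.0107). The relations of Slc7a11 with these levels are therefore not separate, and that with the lens epithelium markers was not shown to be particular to them.

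For Slc3a2, Pearson's r was 0.840 (exact permutation p = 0.0114, adjusted 0.0399) and Spearman's rho 0.690 (exact p = 0.0694, adjusted 0.243). Without the 2 farthest libraries, untreated Ct replicate 3 and CS-exposed replicate 4, r was 0.50, with CS-exposed replicate 3, the other library high in Slc3a2, still included. Slc3a2 and Slc7a11 were related to each other in the same way, with r = 0.840 (exact permutation p = 0.00496) and rho = 0.595 (exact p = 0.132), but with r = 0.233 without replicate 3 of both groups.

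For the other 5 tested transporters the smallest exact permutation p of Pearson's r was 0.294 and that of Spearman's rho 0.216. Pearson's r was 0.430 for Slc1a4 (exact permutation p = 0.294), 0.288 for Slc38a2 (exact p = 0.491), 0.158 for Slc6a6 (exact p = 0.716), 0.133 for Slc23a2 (exact p = 0.748) and -0.08 for Slc7a5 (exact p = 0.869). Without the 2 farthest libraries r became 0.653 for Slc23a2, 0.599 for Slc1a4 and -0.08 for Slc38a2. With the epithelium level as a covariate in the limma fit, the log2 fold change of Slc7a11 was 0.12 (unadjusted p = 0.514) and that of Slc3a2 was -0.02 (unadjusted p = 0.889). In pooled cells a larger number of epithelial cells and more RNA per cell cannot be told apart, and the part of epithelium in the level of Slc7a11 was not tested. With the mean log2 level of the rod markers, the smallest adjusted exact permutation p over the 7 genes was 0.577 for Pearson's r and 0.399 for Spearman's rho. For deviations from the group means, r with the rod level was 0.836 for Slc7a11 (0.399 over the 8 libraries), 0.713 for Slc3a2 (0.243), 0.709 for Slc6a6 (0.501), 0.659 for Slc38a2 (0.613), 0.610 for Slc1a4 (0.139), 0.278 for Slc23a2 (-0.03) and 0.191 for Slc7a5 (0.449). The part of retinal RNA in these values was not tested.

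**Figure D4:**
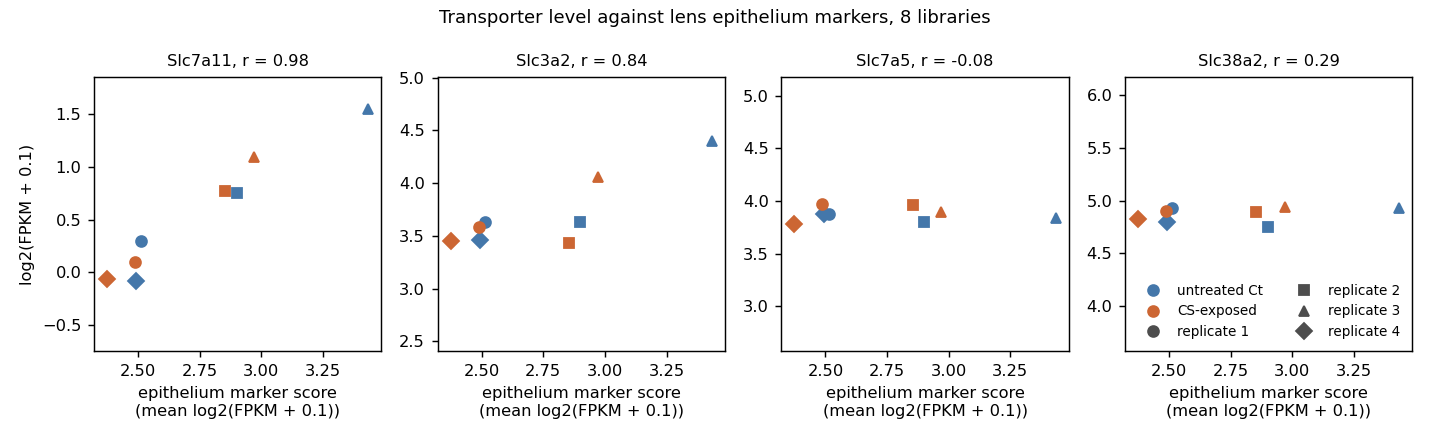
Level of Slc7a11, Slc3a2, Slc7a5 and Slc38a2, log2(FPKM + 0.1), against the mean log2 level of 7 lens epithelium markers in each of the 8 libraries, coloured by group. Slc7a11 climbs steadily with the epithelium level (r = 0.976), Slc3a2 is high only in the replicate 3 libraries, and Slc7a5 stays flat (r = -0.08).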

How the data were processed

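RNA-Seq of lens FC from 4 CS-exposed and 4 untreated Ct pools was analysed. The submitters' processing notes name STAR 2.5, HTSeq 0.6.1, DESeq2 2 and GRCm38, and the authors deposited FPKM for each library. Deposited group means, and columns with the authors' log2 fold changes and p-values, were not used. The annotation release behind the FPKM is not given in the sources used here.

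Genes whose mean reached 1 FPKM in one group or both were fitted on the log2(FPKM + 0.1) scale with limma 3.58.1 (lmFit, eBayes with trend, two-sided) in R 4.3.3, with Benjamini-Hochberg adjustment. This scale understates changes of low genes. Of 54 symbols on more than 1 row, the row with the highest mean was used in lists. Ratios and marker levels were compared over all 70 assignments of 8 libraries, and level differences over 256 sign flips, with Python 3.11.15, numpy 2.4.6 and pandas 2.3.3. Plots were drawn with matplotlib 3.10.9.

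Reads were recovered from FPKM steps (within 0.02 reads of a whole number for 9772 of 9794 genes) and tested with limma-voom. Total fragments are estimates, since GENCODE M21 lengths gave the same value for 773 of 9261 genes. Coordinates are from that annotation of GRCm38.

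The rule for the transporters uses symbols alone, but the genes, lists, markers and motifs were chosen with earlier results of these data known. Named genes are all 10 transporters and, of each list, the highest and those at an unadjusted p under 0.05. Atf4, Slc7a8 and other genes named beside the epithelium level were chosen after their values were seen. Alternatives were other pseudocounts, filters, scalings and variance models, a replicate block, voom, and leaving out each library. Leaving out replicate 3 of both groups, the epithelium level as a covariate, annotated exon lengths, the cornea markers, and relations beyond those of the 7 transporters with the epithelium level were added after seeing the data.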

Additional observations from a re-analysis of the deposited data

Results flagged for a closer look

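Slc3a2 in untreated Ct replicate 3, at 21.0 FPKM, stood apart from the other 3 untreated Ct libraries, which lay between 10.9 and 12.3 FPKM, by Dixon's test of the gap over the range. Of 32 groups examined this was the only 1, where chance marks about 1 in 20 groups, or 1.6 of 32.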

How the results depend on the processing

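The count of transporters with an unadjusted p under 0.05 was 0 under all 21 alternatives, and the smallest unadjusted p of any tested transporter was 0.0980, for Slc3a2 with the replicate block. Of 144 log2 fold changes of the 7 genes under alternatives, 133 kept their direction. Slc6a6 was -0.0061 with quantile normalization and -0.027 without replicate 3 of both groups, and Slc7a11 was 0.12 with the epithelium level as a covariate. Without replicate 3 of both groups the log2 ratio differences were 0.029 for Slc7a11 to Slc3a2 and -0.057 for Slc1a4 to Slc1a5. With single libraries left out, ranges crossed 0 for Slc23a2 (-0.29 to 0.034), Slc7a11 (-0.39 to 0.15), Slc3a2 (-0.29 to 0.055), Slc1a4 (-0.24 to 0.025) and Slc6a6 (-0.023 to 0.059), and for the log2 ratio differences of Slc7a5 to Slc3a2 (-0.0012 to 0.36), Slc7a11 to Slc3a2 (-0.19 to 0.12), Slc7a5 to Slc7a11 (-0.11 to 0.49) and Slc1a4 to Slc1a5 (-0.28 to 0.54). The causes were not tested. The correlation with the epithelium level became -0.079 for Slc38a2 without the 2 farthest libraries and 0.037 for Slc7a5 within groups. Of all genes, 473 had an unadjusted p under 0.05, 862 with no filter, 226 with a filter of 5 FPKM, and 418 to 525 with a library left out. Lower against higher calls were 204 and 269, but 235 and 239 with median centring, 286 and 220 without CS-exposed replicate 3, and 248 and 231 without untreated Ct replicate 4. The adjusted count was 1, but 0 with no filter (862 unadjusted, limma), 0 without the variance trend (498 unadjusted, limma), 2 with limma-voom, 2 with the epithelium covariate, and 0 to 1 with a library left out. Same-numbered libraries correlated at 0.012 to 0.161 (2 of 4 pairs over 0.1), with a mean of 0.090 against -0.030 for differently numbered ones. Untreated Ct replicates 2, 3 and 4 each correlated best with the CS-exposed library of the same number (0.078, 0.111 and 0.161). Untreated Ct replicate 1 correlated best with CS-exposed replicate 4 (0.050). The sources state no pairing, and the numbers were not taken as pairs. What same-numbered libraries may share was not tested. With the replicate block 5 genes passed adjustment and 522 the unadjusted threshold. Fewer than 30 reads in some libraries limit Slc1a5, Slc23a1 and Slc6a9.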

Other observations

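Other transporters of the lists also moved with the epithelium level. Of 11 that were tested, 5 had an adjusted exact permutation p under 0.05 for Pearson's r. The share of all genes that move with the epithelium level was not computed, so the count cannot be read as a trait of transporters. Slc7a2, the arginine and lysine transporter, ran from 25.8 to 32.9 FPKM over the 8 libraries (r = 0.968, exact permutation p = 0.000570, adjusted 0.00382, and r = 0.970 without the 2 farthest libraries). Slc7a8, a light chain of Slc3a2, ran from 6.68 to 17.5 FPKM (r = 0.966, exact permutation p = 0.000694, adjusted 0.00382, and 0.889 without the 2 farthest). Slc2a1, the glucose transporter, ran from 27.5 to 44.9 FPKM (r = 0.962, exact permutation p = 0.00139, adjusted 0.00509, and 0.915 without the 2 farthest). All 3 were highest in untreated Ct replicate 3.

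Slc38a3, a glutamine transporter, ran from 0.514 to 3.35 FPKM (r = 0.840, adjusted exact permutation p = 0.0207) and Slc7a4 gave r = 0.791 (adjusted exact permutation p = 0.0482), with r = 0.571 and 0.331 without the 2 farthest libraries. Spearman's rho was 0.833 for each over the 8 libraries (adjusted exact permutation p = 0.0338). Slc7a6, Slc38a7, Slc38a10, Slc6a17, Slc36a4 and Ctns gave adjusted exact permutation p values of at least 0.118 for Pearson's r and at least 0.0840 for Spearman's rho. These relations were computed after the data had been seen, and the spread of the epithelium level over the libraries limits them as it does those of Slc7a11.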
